A study of Mus musculus with 2 samples.

Results

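Igf1, the secreted growth factor, and 6 genes of the insulin-like growth factor (IGF) binding protein family, Igfbp2, Igfbp3, Igfbp4, Igfbp5, Igfbp6 and Igfbp7, were followed in control and IL-1β-treated lung organoids. They are 7 of the 27998 genes in the count tables, were selected by gene symbol, and were all found in both libraries. IGF1 acts on neighboring cells through the receptor tyrosine kinase IGF1R, which signals through insulin receptor substrate proteins, PI3 kinase and AKT. IGF-binding proteins are secreted proteins that hold IGF in the extracellular space, so that they can keep it from its receptor or store it, and proteases such as PAPP-A release it again. IGFBP7 binds IGF only weakly. In the mouse lung, fibroblasts are a known source of Igf1, and Igfbp2 is known as a marker of mature alveolar type 1 (AT1) cells, the flat cells of gas exchange.

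The organoids were grown from alveolar type 2 (AT2) cells, the surfactant-producing cells that can give rise to AT1 cells. The AT2 cells came from C57BL/6 Sftpc-CreERT2;R26RTomato mice that had received tamoxifen, so that Cre driven by the Sftpc promoter had labeled them, and they were cultured in Matrigel with lung stromal cells depleted of CD31-, CD45- and EpCAM-positive cells. Both cultures shared this genotype, the stromal cells and a serum medium with insulin, and they differed in the added agent, which was PBS in the control organoids and IL-1β in the treated organoids. The genotype of the stromal donors is not given in the sources used here. The labels give 2 weeks of culture and no dose. The other sources differ on the dose of IL-1β and on the length of culture, so the dose and the day of these libraries are uncertain. Each condition is 1 library of 1 culture, so no test over samples can be made, every difference below compares 2 libraries, and the treatment and the library cannot be told apart.

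The control library held 2101 cell barcodes with a median of 14613 unique molecular identifiers (UMIs), and the IL-1β library held 3066 with a median of 11496.5. The libraries had 11 barcodes in common. After the filter on cells, 2083 and 3059 cells remained. Cells were clustered without the IGF genes and named from marker genes. AT2 cells (825 control and 2006 IL-1β cells) and stromal cells (794 and 475) held most UMIs. Transitional cells, named from a list of 10 markers that includes Krt8, Cldn4, Sprr1a and Lgals3, numbered only 25 and 87. In cluster 7, with 86 IL-1β cells, all 10 markers were higher than in the other epithelial cells. In cluster 10, which held the 25 control cells, 8 of them were. Ndrg1 had 7 and 341 UMIs and AW112010 had 10 and 613 in the control and IL-1β transitional cells. Epithelial clusters that met no other name, by score or leading genes, were called AT2 at a mean log2 AT2 marker ratio above -0.5. Control AT2 cells were mostly cluster 1 (809 cells), with 8 of 9 AT2 markers higher than in the other epithelial cells. IL-1β AT2 cells were clusters 0, 2 and 4 (959, 655 and 392 cells), with 6, 2 and 5 of these markers higher. In clusters 2 and 4, 6 of the 10 transitional markers were also higher. Each AT2 difference is thus also a difference between clusters. The Ager-high cells (268 and 436) carried AT1 markers, but the cluster that held 430 of the IL-1β cells (cluster 3) had 2 transitional markers, AW112010 and Cldn4, and 1 AT1 marker, Hopx, among its 10 leading genes. They are therefore called Ager-high cells and compared as cluster 5 in control organoids against cluster 3, with 6 cells of cluster 5, in IL-1β-treated organoids. All 12 AT1 markers and all 9 AT2 markers were detected in both sets of Ager-high cells, but also in stromal cells, so detection does not set them apart. In Ager-high cells the summed AT1 list was at 21255 and 13052 CPM (counts per 1000000 UMIs of the cells), and the summed AT2 list at 44469 and 28898. In AT2 cells the AT1 list was at 2031 and 1339, and the AT2 list at 137841 and 103039. The naming had no endothelial class. In stromal cells Cdh5 went from 0 to 71 UMIs, Cldn5 from 0 to 95, and the summed endothelial list from 2.73 to 26.3 CPM. Ptprc, which marks all leukocytes, had 1 and 0 UMIs there. The summed macrophage and immune list was at 13.7 and 17.7 CPM, mostly from Cd68, with 111 and 161 UMIs. Csf1r had 43 and 5 UMIs and Tyrobp 19 and 1.

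All levels are in CPM, so they can be compared between cells and libraries for 1 gene, and are not compared between genes. Their 95% intervals are exact Poisson intervals, those of ratios exact conditional binomial intervals, and those of shares of cells exact Clopper-Pearson intervals, and all cover counting error only. A gene was counted as raised or lowered where its level differed at least 2-fold and it had at least 50 UMIs in the cells of both libraries together.

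In stromal cells, 1 of the 7 genes was raised in the IL-1β library (Igfbp5), 2 were lowered (Igfbp2 and Igf1) and 4 were within 2-fold. Among all 11360 genes tested there, 4.23% were raised and 11.6% lowered. In AT2 cells 1 was raised (Igfbp5), 3 were lowered (Igfbp2, Igfbp7 and Igf1) and 3 were within 2-fold, against 8.58% raised and 3.36% lowered of 11329 genes. In Ager-high cells 6 of the 7 genes had enough UMIs. Of these, Igfbp3 and Igfbp5 were raised and Igfbp2 and Igfbp6 lowered, against 4.61% raised and 3.31% lowered of 9561 genes. With no more than 7 genes, a count of 1 to 3 is compared with these shares only as a description. In transitional cells 2 of the 7 genes could be compared, of which Igfbp6 was raised and none lowered, against 8.59% raised and 4.52% lowered of 4026 genes. The median log2 ratio of the 7 genes was -0.51 in stromal cells and -0.72 in AT2 cells, against -0.33 and 0.13 for all genes tested in the same cells. The AT2 median is the ratio of Igfbp4. In AT2 cells Igfbp3, Igfbp4, Igfbp5 and Igf1 are at background, as shown further on. That median is therefore not read as lower expression by AT2 cells. Igfbp2 was lowered and Igfbp5 raised in all 3 classes where both had enough UMIs. These classes are not separate observations. As given below, Igfbp5 in AT2 and Ager-high cells is at background, and Igfbp2 in AT2 cells is not read as expression. With a minimum of 100 UMIs in place of 50, the counts in stromal and AT2 cells were the same, against 3.59% raised and 10.3% lowered of all stromal genes and 7.09% and 2.52% of all AT2 genes. In Ager-high cells 3 members remained to compare, with none raised and 1 lowered (Igfbp2), against 4% (323 of 8070 genes) and 2.53%. In transitional cells 1 member remained, and it was not called, against 8.53% and 3.60%.

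**Figure D1:**
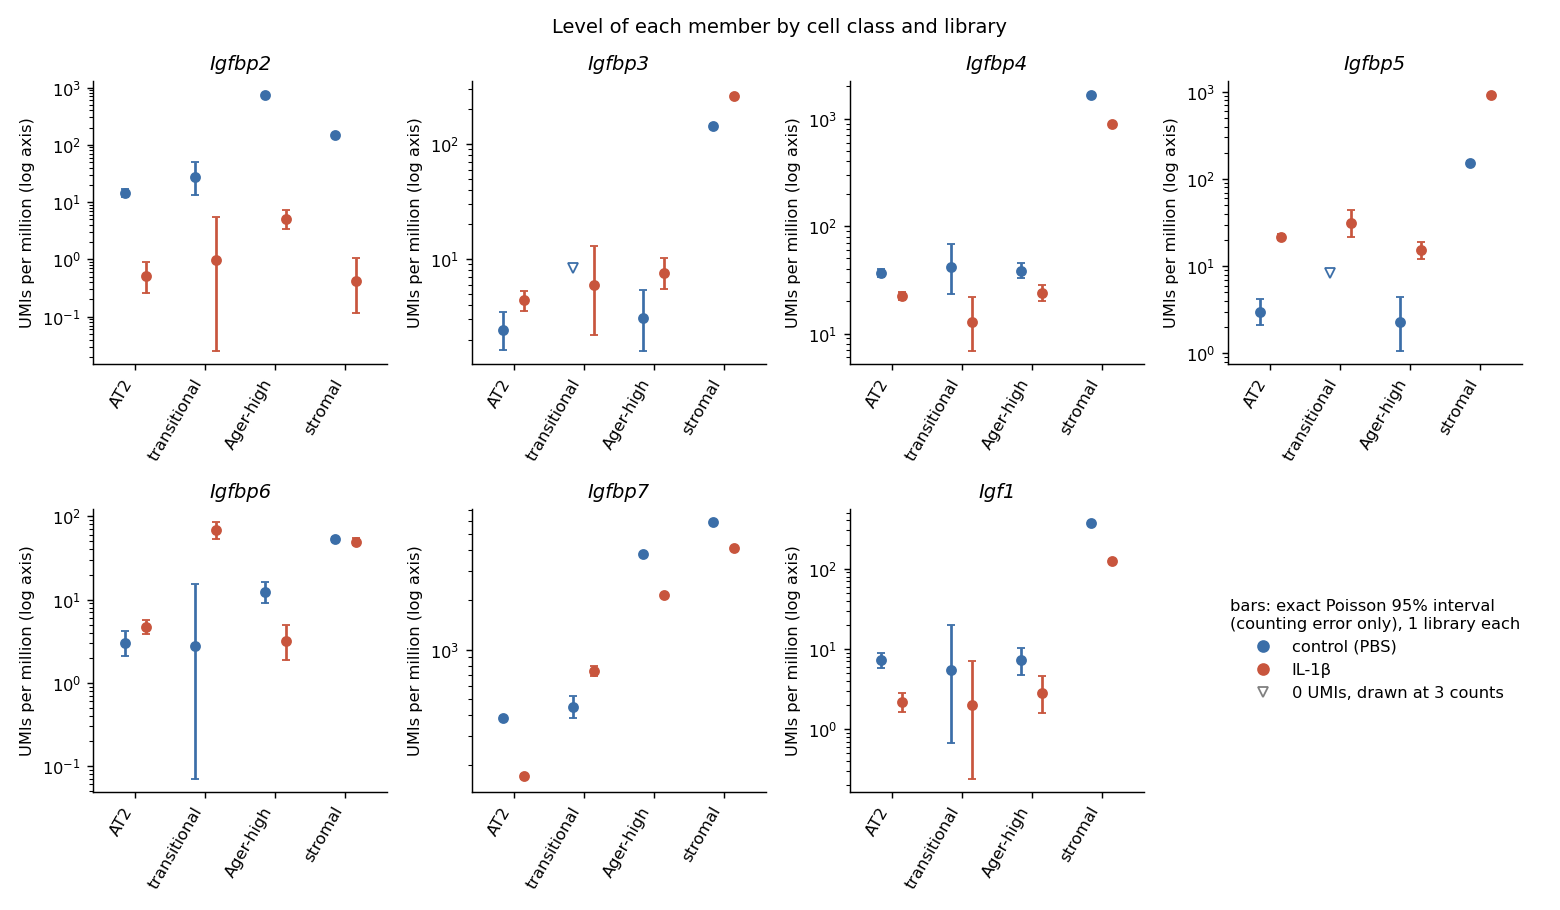
Level of each gene in CPM (log axis, scaled separately for each gene) in AT2, transitional, Ager-high and stromal cells of the control (blue) and IL-1β (red) libraries, with exact Poisson 95% intervals of counting error and triangles at 3 counts where no UMI was found. Igfbp3, Igfbp4, Igfbp5 and Igf1 stand highest in stromal cells of both libraries, and Igfbp2 in control Ager-high cells at 746.

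**Figure D2:**
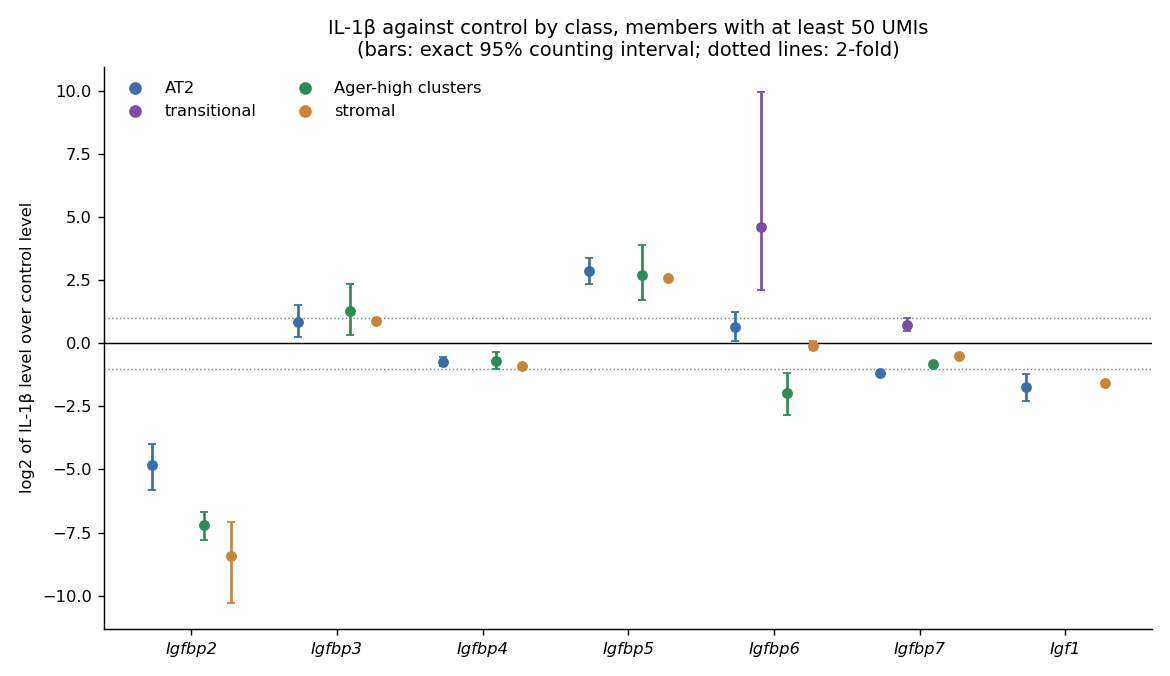
Log2 of the IL-1β level over the control level (vertical axis) for each gene and class with at least 50 UMIs, with exact 95% counting intervals and dotted lines at 2-fold. Igfbp2 lies at -4.82 in AT2, -7.20 in Ager-high and -8.43 in stromal cells, while Igfbp5 lies between 2.60 and 2.85 in these 3 classes. The Igfbp5 levels in AT2 and Ager-high cells are at background, and the Igfbp2 level in AT2 cells is not read as expression.

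Before the genes are taken in turn, their levels in epithelial cells were set against those of stromal marker genes, because RNA freed from stromal cells can give UMIs in any droplet. For 7 stromal genes (Col1a1, Col1a2, Col3a1, Dcn, Pdgfra, Pdgfrb and Lum), the level in control AT2 cells was 1.47% to 4.25% of the level in stromal cells, with a median of 2.28%. In IL-1β AT2 cells it was 1.70% to 3.86%, and in Ager-high cells 1.39% to 3.82% (control) and 1.44% to 3.60% (IL-1β). Igfbp3, Igfbp4, Igfbp5 and Igf1 lay inside these ranges in all 4 sets of cells, except Igfbp3 in IL-1β AT2 cells, which was just below the lower end. Their levels in AT2 cells were 1.71%, 2.19%, 1.95% and 1.93% of the stromal level in control organoids, and 1.68%, 2.50%, 2.33% and 1.71% in IL-1β-treated organoids. These epithelial levels are at the level of background and are not read as expression by AT2 or Ager-high cells. The calls of Igfbp5 and Igf1 in AT2 cells, and those of Igfbp3 and Igfbp5 in Ager-high cells, rest on such levels. Igfbp2, Igfbp6 and Igfbp7 went beyond the range in at least 1 set of epithelial cells.

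**Figure D3:**
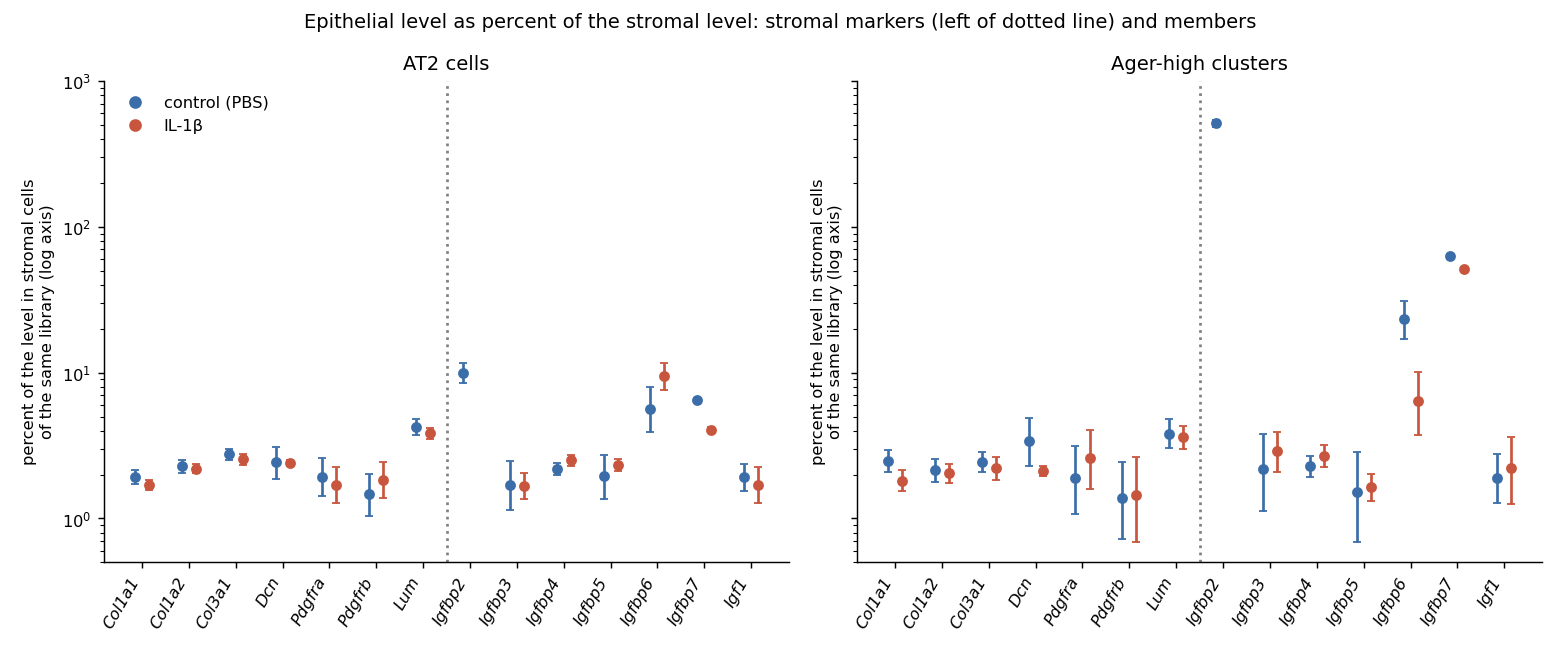
Level in AT2 cells (left) and Ager-high cells (right) as percent of the level in stromal cells of the same library (log axis), with 95% counting intervals, for 7 stromal marker genes and the 7 IGF genes, control in blue and IL-1β in red. Igfbp3, Igfbp4, Igfbp5 and Igf1 lie among the stromal markers, Igfbp7 reaches 63.6% and 51.6% in Ager-high cells, and Igfbp2 is drawn only for the control library, where it reaches 512% in Ager-high cells, because IL-1β stromal cells had 4 UMIs of it.

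Igf1, the ligand, was found almost wholly in stromal cells, which held 96.9% of its UMIs in the control library and 94.4% in the IL-1β library, while they held 41.4% and 23.3% of all UMIs. Its stromal level was 377 CPM (interval 366 to 387) in control organoids and 126 (119 to 134) in IL-1β-treated organoids, 2.98-fold lower (2.80 to 3.17). At least 1 Igf1 UMI was seen in 71.9% of control and 43.6% of IL-1β stromal cells, at median depths of 15741 and 14849 UMIs, and in 51.6% and 25.3% after every cell was thinned to 4000 UMIs. In AT2 cells, whose Igf1 is at background, the shares were 9.33% and 2.49% at median depths of 13976 and 11196.5, or 2.79% and 0.798% thinned. So a smaller share of the IL-1β stromal cells had the transcript at equal depth, in step with the lower level. Igf1 overlaps Igf1os, an antisense gene on the other strand, and whether strand was used in counting is not given in the sources used here.

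The stromal cells of the libraries did not fall into the same subsets, so each stromal difference is also a difference between subsets. Control stroma consisted mostly of subset 0 (507 cells, led by Chodl and Dio2), subset 3 (88 cells, Cfd and Adipoq), subset 5 (67 cells, Nkd2 and Col11a1) and contractile cells (subset 2, 85 cells, with Acta2 and Tagln). IL-1β stroma consisted mostly of subset 1 (367 cells, Mmp3 and Dcn) and subset 4 (68 cells, Mmp10 and Il11), with 16 cells of subset 2. In subset 1 all 6 endothelial markers were higher than in the other stromal cells (mean log2 0.488). Subset 6 (17 and 23 cells) also carried epithelial genes such as Cldn18 and Ager, and subset 7 (28 and 1) was contractile with a low median depth of 6465 UMIs. The summed contractile list was at 813 CPM in control and 103 in IL-1β stroma, and its part in the stromal differences was not tested. Subset 2 also had all 6 cycling markers higher than the other stromal cells (mean log2 0.848). Its contractile list was not compared between its 85 control and 16 IL-1β cells, and all 475 IL-1β stromal cells together held 978 UMIs of that list. The subset 2 cells of both libraries are therefore not shown to be alike.

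Across these subsets Igf1 was highest in subset 3, at 931 CPM, and in subset 5, at 888, whose counting intervals overlap (881 to 982 and 839 to 940). It was at 272 in subset 0, 178 in subset 4, 140 in control subset 2 and 121 in subset 1. Both IL-1β subsets thus lay below the 3 non-contractile control subsets. Within subset 2, the one subset with more than 10 cells of each library and no epithelial genes, Igf1 went from 140 to 52.0, 2.70-fold lower (1.82 to 4.16), on 290 and 27 UMIs. Without the contractile subsets and the subset with epithelial genes, the stromal difference was 3.34-fold (3.12 to 3.56).

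**Figure D4:**
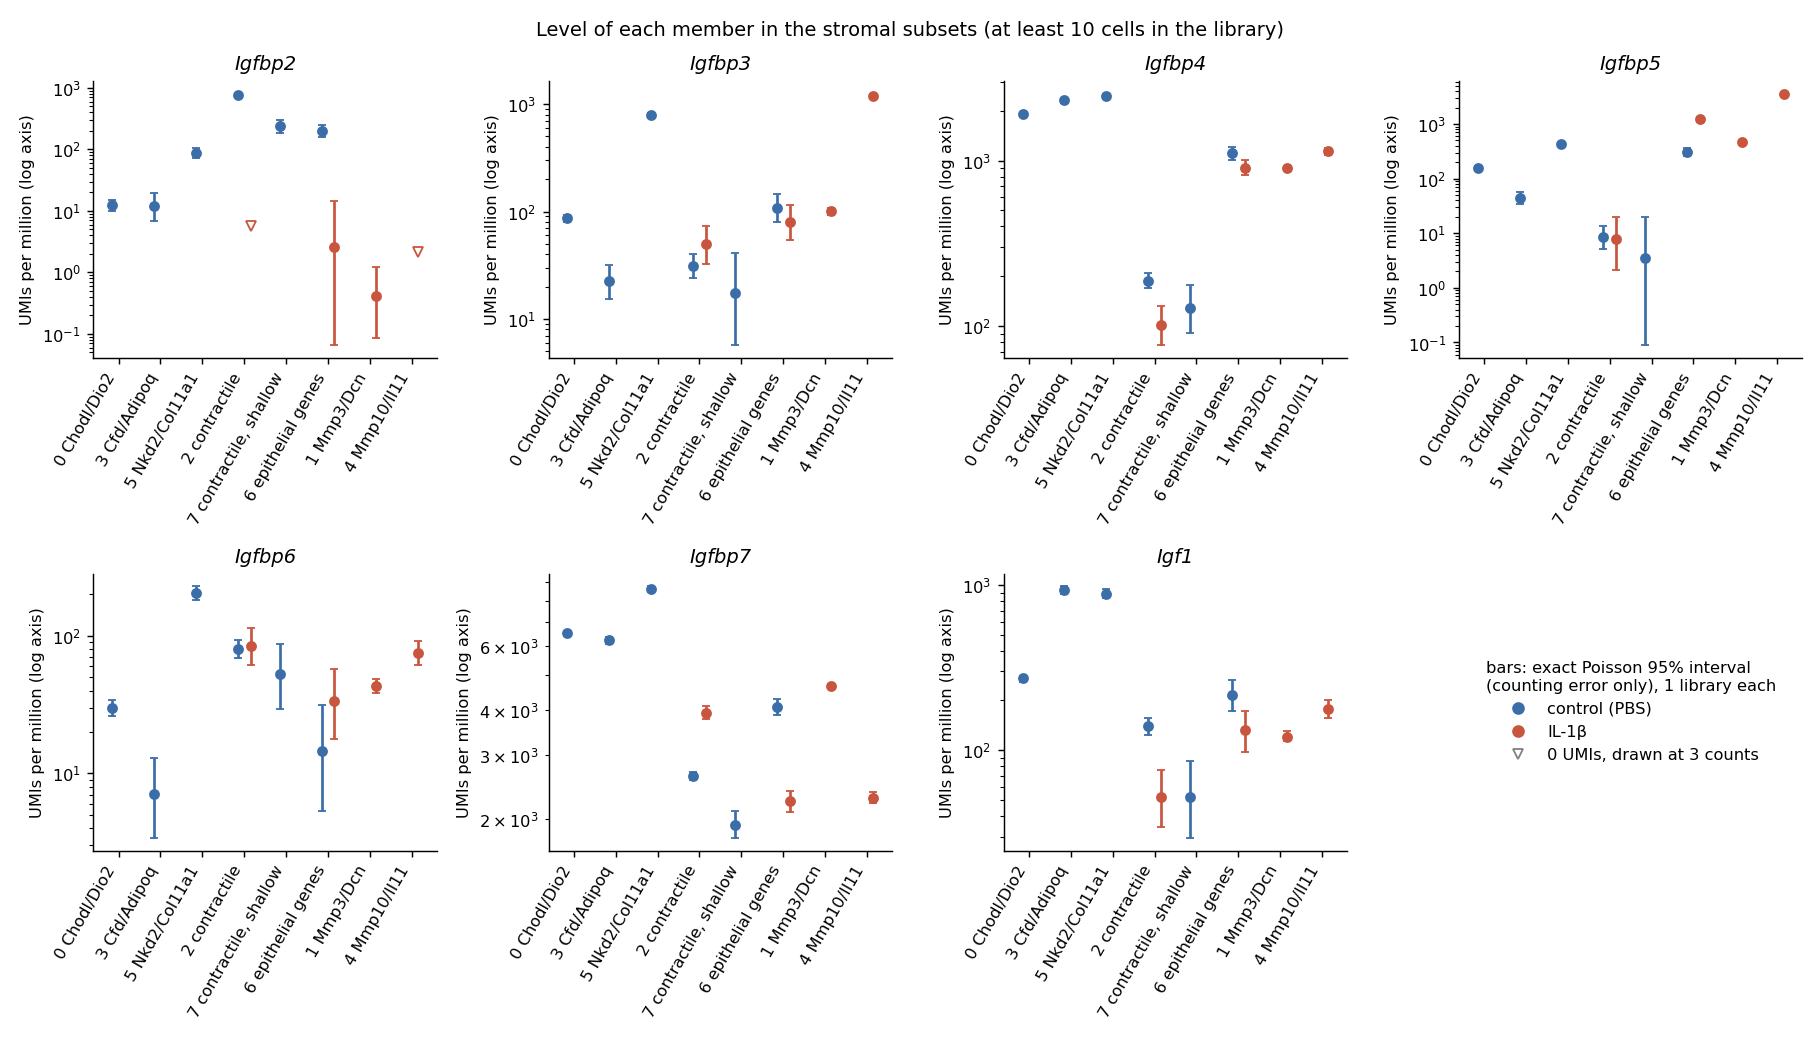
Level of each gene in CPM (log axis, scaled separately for each gene) in the 8 stromal subsets, for subsets with at least 10 cells of the library, control in blue and IL-1β in red, with exact Poisson 95% intervals and triangles at 3 counts where no UMI was found. Igfbp2 is highest in control contractile cells of subset 2 at 767, Igfbp5 in IL-1β subset 4 at 3506, and Igf1 in control subsets 3 and 5 at 931 and 888.

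Igfbp2 and Igfbp5 are neighbors on chromosome 1 and lie on opposite strands. In GRCm38 with GENCODE M21 genes, Igfbp2 (ENSMUSG00000039323) is at chr1:72824503-72852474 on the plus strand and Igfbp5 (ENSMUSG00000026185) at chr1:72857932-72874884 on the minus strand, 5458 bases apart with no coding gene between them. Their promoters are shown because these neighbors differed in opposite directions. The RefSeq promoter sequences of GRCm38.p6, from 250 bases before to 50 bases after a transcription start, span chr1:72824230-72824529 on the plus strand and chr1:72874816-72875115 on the minus strand. Capitals mark matches to any of 4 motifs searched on both strands. The NF-kB-like motif was GGGA followed after 4 bases of any kind by CC. The letters of the GC box, a site of general promoter factors, were GGGCGG. The AP-1-like motif was searched as TGANTCA, in which N is any base. For the TATA box, which positions the transcription start in some promoters, the letters were TATAAA.
Igfbp2: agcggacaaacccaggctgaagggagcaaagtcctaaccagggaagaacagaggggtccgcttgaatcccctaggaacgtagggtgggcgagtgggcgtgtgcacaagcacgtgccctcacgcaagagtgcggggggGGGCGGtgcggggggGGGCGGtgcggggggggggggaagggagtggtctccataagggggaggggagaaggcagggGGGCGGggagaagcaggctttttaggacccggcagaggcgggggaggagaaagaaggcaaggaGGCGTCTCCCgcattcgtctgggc
Igfbp5: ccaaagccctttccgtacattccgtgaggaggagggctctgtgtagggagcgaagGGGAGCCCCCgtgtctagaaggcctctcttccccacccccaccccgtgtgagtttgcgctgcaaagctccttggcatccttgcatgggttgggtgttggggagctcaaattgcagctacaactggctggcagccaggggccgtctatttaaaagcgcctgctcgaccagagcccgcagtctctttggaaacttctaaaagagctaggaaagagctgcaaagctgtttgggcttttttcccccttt
The Igfbp2 promoter holds 3 GC boxes, which begin at -113, -98 and -37 from the start, and 1 NF-kB-like match on the minus strand at 27. The Igfbp5 promoter holds 1 NF-kB-like match at -195 and none of the other motifs. Of 32851 promoters of the same length, 20.7% hold the NF-kB-like letters, 35.7% the GC box, 7.81% the AP-1-like letters and 13.6% the TATA box. GC content is 67.0% in the Igfbp2 and 56.3% in the Igfbp5 window, against a median of 52.7%. Of the other members, Igf1 has 1 NF-kB-like match and 1 AP-1-like match, and Igfbp7 has 4 GC boxes. Igfbp4 has the TATA box letters at -28 on the plus strand. Igfbp6 has them only at -148 and on the minus strand, so they are not called a TATA box of that gene. None of the 4 motifs was found in the Igfbp3 window. A second listed start of Igfbp2 has 1 AP-1-like match. These matches are a description of the letters in each window, and all 7 genes had an entry in the promoter table. The other members lie elsewhere, with Igf1 (ENSMUSG00000020053) at chr10:87858265-87937042 on the plus strand and Igfbp7 (ENSMUSG00000036256) at chr5:77349240-77408041 on the minus strand. Igfbp3 (ENSMUSG00000020427) is at chr11:7206086-7213923 on the minus strand, Igfbp4 (ENSMUSG00000017493) at chr11:99041244-99054392 on the plus strand and Igfbp6 (ENSMUSG00000023046) at chr15:102144362-102149511 on the plus strand.

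Igfbp2, which binds both IGF1 and IGF2, had 5107 UMIs in the cells kept from the control library and 48 in those from the IL-1β library. Ager-high cells held 56.9% of the control UMIs and stromal cells 38.7%. In Ager-high cells the level was 746 CPM (719 to 774, from 2904 UMIs) in control and 5.09 (3.41 to 7.30, from 29 UMIs) in the IL-1β library, 147-fold lower (102 to 219). The 430 cells of cluster 3 alone gave 4.82. In stromal cells it was 146 (1976 UMIs) against 0.423 (4 UMIs), 344-fold lower (134 to 1264), and in AT2 cells 14.4 (173 UMIs) against 0.510 (12 UMIs), 28.2-fold lower (15.8 to 55.7). The levels of the libraries did not overlap in their counting intervals in any of these classes. In transitional cells 10 UMIs were counted in control and 1 in IL-1β organoids, too few for a comparison under the limit of 50.

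A UMI of Igfbp2 was found in 47.0% of control Ager-high cells (40.9 to 53.2) at a median depth of 12385.5, or 32.8% thinned, and in 2.52% of IL-1β Ager-high cells (1.27 to 4.47) at 11539.5, or 1.15% thinned. Control AT2 cells, with 18.3% at 13976 (6.06% thinned), had 1.93% of the Ager-high level. The AT1 markers Rtkn2, Hopx, Cav1, Clic5 and Spock2, the lowest of the 12, had 1.16% to 2.19% of their Ager-high level in the same AT2 cells. The others lay higher, up to 31.8% (Aqp5). Igfbp2 also had like low levels in other control cells, namely 12.3 in stromal subset 0, 14.7 in cycling cells and 16.0 in the Scgb1a1-led cluster 8. Only subset 0 is of another kind than AT2 cells. In the cycling cluster and in cluster 8, 8 of the 9 AT2 markers were higher than in the other epithelial cells. The AT1 markers do not set a single level of background, so whether AT2 cells express Igfbp2 above it is not read from these values. The AT2 call of Igfbp2 rests on this low level. Among IL-1β AT2 cells 0.249% had a UMI at a median depth of 11196.5, or 0.150% thinned.

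Within cluster 5 the transcript was carried by few cells. The 34 of 268 cells with 10 or more Igfbp2 UMIs held 91.5% of the UMIs, the median cell had 0, and 1 cell with 809 UMIs held 27.9%. Without that cell the level was 544. In the IL-1β library 1 Ager-high cell held 17 of the 29 UMIs, and the level without it was 2.11. The 34 cells with 10 or more UMIs had a summed AT1 list of 24290 and a summed AT2 list of 22954 CPM, while the 142 cells without a UMI had 19842 and 49548. The median depths of these cells were 12730.5 and 11274 UMIs, and their summed contractile lists 34.9 and 47.7. The high cells were thus richer in AT1 and poorer in AT2 transcripts than the cells without Igfbp2 of the same cluster, a split chosen after the values were seen and given without a test.

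In the stroma, Igfbp2 was highest in contractile subset 2, in which Acta2, Tagln and Cnn1 encode the contractile apparatus. Subset 2 had 767 CPM in the control library (730 to 806), subset 7 had 238, subset 6 had 201 and subset 5 had 87.7. Without the highest cell of each subset these levels were 704, 50.1, 92.5 and 72.8, so the high level of subset 7 rested on 1 of 28 cells. In the IL-1β library 0 UMIs were found in the 16 cells of subset 2, which allows up to 5.77 CPM by 3 counts, so the level was at least 133-fold lower by that floor, and at least 108-fold lower by the exact 95% interval. The IL-1β subset 4 had 0 UMIs in 68 cells (up to 2.11) and subset 1 had 3 UMIs in 367 cells, a level of 0.421. Here again a small number of cells carried most of it, since 22 of 85 control cells held 96.0% of the UMIs of subset 2. Those 22 cells had a summed contractile list of 5869 against 2480 in the 43 cells of the subset without a UMI, a summed stromal list of 4741 against 6496, a summed cycling list of 24.2 against 150, and a median depth of 27064 against 18333 UMIs, again a split chosen after the values were seen and without a test. Without the contractile subsets and the subset with epithelial genes, stromal Igfbp2 was still 62.5-fold lower in the IL-1β library (21.1 to 305), from 237 and 3 UMIs.

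**Figure D5:**
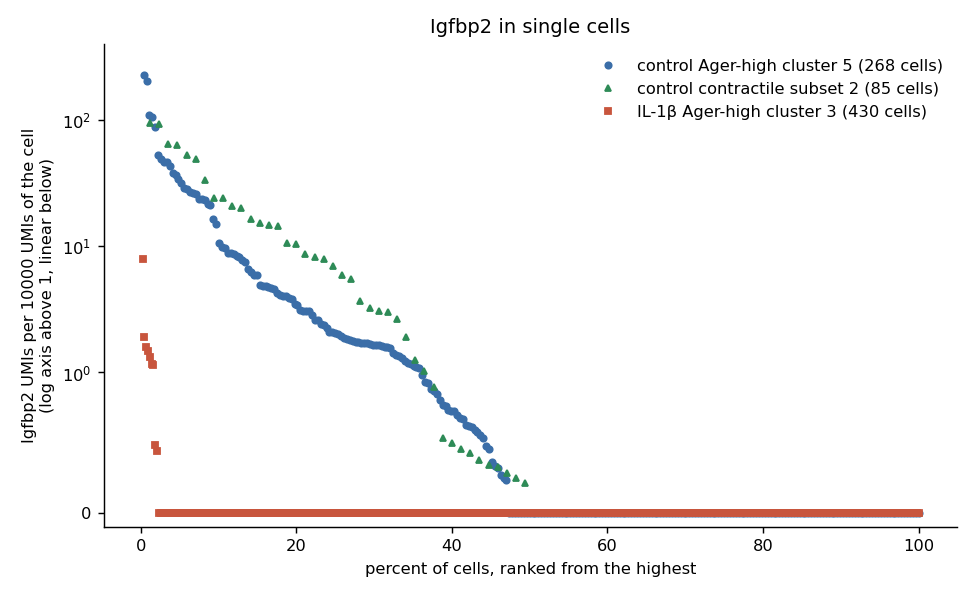
Igfbp2 UMIs per 10000 UMIs of the cell (vertical axis, log above 1 and linear below) for single cells ranked from the highest (horizontal axis, percent of cells) in control Ager-high cluster 5 (blue), control contractile subset 2 (green) and IL-1β Ager-high cluster 3 (red). A UMI was found in 47.0%, 49.4% and 2.09% of the cells, the points of cells without one lie on top of each other at 0, and the highest control cell reaches 228.

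Igfbp5, a binding protein that also attaches to the extracellular matrix, went the other way. Its stromal level was 154 CPM (147 to 160, from 2084 UMIs) in control and 928 (909 to 948, from 8777 UMIs) in IL-1β organoids, 6.04-fold higher (5.76 to 6.34). Stromal cells held 97.4% and 93.2% of its UMIs. A UMI was seen in 13.9% of control and 64.0% of IL-1β stromal cells, or 8.69% and 49.1% thinned, against 4.24% and 21.3% (1.58% and 8.18% thinned) in AT2 cells, where it was at background. More stromal cells thus carried the transcript in the IL-1β library. In both libraries the distribution was uneven, with 30 of 794 control cells holding 90.5% of the UMIs and 126 of 475 IL-1β cells holding 93.7%. The highest control cell had 434 UMIs, and the highest IL-1β cell 987.

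Subset 4, led by Mmp10 and Il11, had 3506 CPM of Igfbp5 (3409 to 3605), and 2874 without its highest cell, against 466 in subset 1. In the control, subset 5 had 440 (221 without its highest cell, which held 51.2% of its UMIs), subset 0 had 158 and subset 3 had 45.1. In subset 0 14 of 507 cells held 92.4% of the UMIs, and these 14 cells had a summed matrix fibroblast list (Dcn, Lum, Pdgfra, Mfap4 and others) of 2269 against 949 in the 455 cells without a UMI. In contractile subset 2 the level was 8.70 and 7.70, from 18 and 4 UMIs, too few for a comparison. The size of the stromal difference depended on subset 4. Without it the log2 ratio was 1.62 in place of 2.60, still past 2-fold. In AT2 cells 36 UMIs were counted in control and 509 in IL-1β organoids (ratio 7.22, 5.14 to 10.4), and in Ager-high cells 9 and 87 (ratio 6.60, 3.32 to 14.9). In transitional cells 0 of 25 control cells had a UMI, which allows up to 8.30 CPM, against 31.7 from 32 UMIs in the IL-1β library. That IL-1β level was 3.41% of the stromal level (2.33% to 4.82%), inside the range of the stromal markers in the same cells (0% to 4.07%). That range rests on 0 to 138 UMIs per marker and has a median of 1.90%, so it is too wide to settle whether Igfbp5 is at background there. The level is therefore not read as expression by transitional cells.

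Igfbp3, the main carrier of IGF in serum, lies 3540 bases from Igfbp1, which had no UMI in any of the 4 classes. Its stromal level was 142 CPM (135 to 148) in control and 261 (251 to 272) in IL-1β organoids, a ratio of 1.85 (1.74 to 1.96) that stays under 2-fold. The share of stromal cells with a UMI was 34.9% and 47.6%, or 20.7% and 29.1% thinned, against 3.52% and 4.49% in AT2 cells (1.33% and 1.89% thinned). Its level was highest in a different subset of each library. Subset 5 had 785 (739 to 834) among control cells and subset 4 had 1194 (1137 to 1252) among IL-1β cells, while subsets 0, 1, 3 and control subset 2 had 86.6, 101, 22.5 and 31.4. The direction of the stromal difference turned on subset 4, since without its 68 cells the log2 ratio was -0.55 in place of 0.88. In Ager-high cells the count went from 12 to 43 UMIs, a ratio of 2.45 (1.27 to 5.10), of which 16 came from 1 IL-1β cell. Without that cell the IL-1β level was 4.76 in place of 7.54, against 3.08 in the control (2.58 without its own highest cell).

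Igfbp4, which binds IGF1 and is cut by PAPP-A, was the binding protein whose pattern was most like that of Igf1. Across 16 groups of cells, the log2 levels of Igfbp4 and Igf1 had a Pearson correlation of 0.97. The groups are the epithelial clusters and stromal subsets of each library with at least 30 cells. Both genes are at background in AT2 and Ager-high cells, so the split between stromal and epithelial groups alone gives a high value. The stromal gene Col3a1 had 0.989 with Igfbp4. The value of 0.97 is therefore not read as a likeness particular to these 2 genes. It is a description over groups that share libraries and depth. Its stromal level was 1679 CPM (1657 to 1701) in control and 891 (872 to 910) in IL-1β organoids, 1.88-fold lower (1.84 to 1.93). UMIs were seen in 93.8% and 84.8% of stromal cells, or 87.7% and 68.8% thinned, against 39.0% and 22.4% of AT2 cells (13.0% and 8.82% thinned). All 3 non-contractile control subsets were above both IL-1β subsets, with 1904, 2317 and 2458 in subsets 0, 3 and 5 against 899 and 1137 in subsets 1 and 4. Contractile subset 2 was low in both, at 188 and 102. Without the contractile subsets and the subset with epithelial genes, the difference passed the limit at 2.16-fold lower (2.11 to 2.22).

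Igfbp6, which prefers IGF2 over IGF1, was nearly level in the stroma, at 52.9 CPM (49.1 to 56.9) in control and 49.7 (45.3 to 54.4) in IL-1β organoids, a ratio of 0.940 (0.835 to 1.06). By subset it ranged from 7.05 in subset 3 to 204 in subset 5 (122 without the highest cell), with 80.2 and 84.7 in contractile subset 2 of the control and IL-1β libraries and 75.3 in subset 4. Its epithelial levels differed in opposite directions. In Ager-high cells it was 12.3 (48 UMIs) against 3.16 (18 UMIs), 3.91-fold lower in the IL-1β library (2.23 to 7.14), and the control level was 23.3% of the stromal level, beyond the range of the stromal markers. In transitional cells it was 2.77 against 68.3, from 1 and 69 UMIs, a ratio of 24.7 with an interval of 4.29 to 990. The IL-1β transitional level was 137% of the stromal level. A UMI was found in 28 of the 87 cells (32.2%, or 14.9% thinned), at a median depth of 10912, against 4.59% of IL-1β AT2 cells (1.99% thinned). The control side of this ratio is 25 cells, and the class changed with the clustering, so that the log2 ratio of 4.63 lay between 0.29 and 4.63 over the settings that gave a value. Msln, a mesothelial marker, had 138 UMIs in the IL-1β transitional cells, while Wt1, Upk3b and Lrrn4 had 0. Among IL-1β AT2 cells, cluster 4 (led by Fgl1 and Arg1, 392 cells) had 14.1, against 2.68 in cluster 0 and 2.92 in cluster 2.

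Igfbp7, an abundant secreted protein of fibroblasts and endothelium, was detected in nearly all stromal and Ager-high cells, and in 97.0% of control but 77.4% of IL-1β AT2 cells (74.9% and 45.6% thinned). Its stromal level was 5942 CPM (5901 to 5983) in control and 4165 (4124 to 4206) in IL-1β organoids, 1.43-fold lower (1.41 to 1.44). Ager-high cells had 3781 (3720 to 3843) and 2150 (2112 to 2189), 1.76-fold lower (1.72 to 1.80), which is 63.6% and 51.6% of the stromal level and far above the stromal markers. All 268 control and 434 of 436 IL-1β Ager-high cells had a UMI, or 99.3% and 97.5% thinned, so that in contrast to Igfbp2 this transcript was spread over the whole of both clusters. AT2 cells had 386 (375 to 397) and 170 (164 to 175), 2.27-fold lower (2.18 to 2.37). The log2 ratio of -1.19 came to -0.99 at Leiden resolution 0.5 and to -0.93 with the IGF genes kept in the clustering, both under 2-fold. The AT2 level was 6.50% and 4.07% of the stromal level, above the highest stromal marker (4.25% and 3.86%), by a small margin in the IL-1β library. It was also 10.2% and 7.89% of the Ager-high level, inside the wide range of the 12 AT1 markers in AT2 cells (1.16% to 31.8% and 1.31% to 27.7%). But it was above the low markers set beside Igfbp2, namely Rtkn2, Hopx, Cav1, Clic5 and Spock2 (1.16% to 2.19% and 1.31% to 4.71%). Control cycling cells and cluster 8, which also carried AT2 markers, had much the same level, at 368 and 358. The AT1 markers do not set a single level of background, so whether AT2 cells express Igfbp7 above it is not read from these values. The 3 IL-1β AT2 clusters differed among themselves, with 125 in cluster 0, 183 in cluster 4 and 232 in cluster 2, against 387 in the control AT2 cluster 1. Transitional cells had 448 (382 to 523) and 745 (692 to 800), a ratio of 1.66 (1.40 to 1.98), but the median cell had 3.26 UMIs per 10000 in control and 2.15 in IL-1β organoids. The direction turned with the clustering, with a log2 ratio of 0.73 as reported, -0.28 with each library clustered alone and -0.64 with the IGF genes kept. In the IL-1β transitional cells 24 of 87 cells held 81.4% of the UMIs, and in the control 1 cell held 34.0%. In contractile subset 2 Igfbp7 was higher in the IL-1β library, at 3936 (3767 to 4110) against 2631 (2562 to 2702), a log2 difference of 0.58 and the opposite of the stroma as a whole. These levels come from 16 and 85 cells that are not shown to be alike. Igfbp7 overlaps Polr2b and Gm34648 on the other strand, so that reads from them cannot be told apart from its own without strand.

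Of 31 further genes of the IGF pathway, 25 could be compared in stromal cells, where 2 were raised, 9 were lowered and 14 were within 2-fold, with a median log2 ratio of -0.44 against -0.33 for all genes. Of all stromal genes 4.23% were raised and 11.6% lowered. With a minimum of 100 UMIs, 22 pathway genes were compared, with 2 raised and 7 lowered, against 3.59% and 10.3% of all genes. The genes lowered at the minimum of 50 included the second ligand, Igf2, from 88 to 1 UMIs, a ratio of 0.0163 (0.000408 to 0.0933). Igfals, which encodes the acid-labile subunit of the serum IGF complex, was at 0.153, on 47 and 5 UMIs. Both had too few UMIs at the minimum of 100. The lowered genes also included the docking and adaptor genes Irs1 (ratio 0.311), Irs2 (0.420), Grb10 (0.416) and Grb14 (0.214), and Pik3r1, the regulatory subunit of PI3 kinase (0.327). Pappa, whose protease releases IGF by cutting Igfbp4, went from 162 to 52.1 CPM, and Prss23, a serine protease gene, from 50.2 to 2.01. The raised genes were Stc2, an inhibitor of PAPP-A (ratio 2.54, 2.19 to 2.95), and Ctsd, a lysosomal protease (2.09). The receptor genes stayed within 2-fold, with ratios of 0.737 for Igf1r, 1.18 for Igf2r and 0.963 for Insr. Akt1 (0.812), Foxo1 (0.636) and Foxo3 (0.661), which act below the receptor, were also within 2-fold.

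In AT2 cells 21 of the 31 genes could be compared, of which Stc1 (ratio 2.86) and Stc2 (4.89) were raised, Irs1 (0.155), Grb10 (0.282) and Htra3, a serine protease gene (0.268), were lowered and 16 were within 2-fold, against 8.58% raised and 3.36% lowered of all genes. With a minimum of 100 UMIs, 20 were compared, with 2 raised and 2 lowered, against 7.09% and 2.52% of all genes. Htra3, on 40 and 21 UMIs, then had too few. In Ager-high cells 17 were compared, none was raised, Irs1 (0.302) and Grb10 (0.199) were lowered and 15 were within 2-fold, against 4.61% and 3.31% of all genes. With a minimum of 100 UMIs none of 15 genes was lowered there. The epithelial levels of the pathway genes were not set against those of the stromal markers. Stc1 was at 2.08 and 5.95 CPM in control and IL-1β AT2 cells, low beside 85.0 and 121 in stromal cells. Its call is therefore not read as a change in AT2 cells. Irs1, in contrast, was at 32.3 in control AT2 cells and 27.9 in control stromal cells. Irs1 and Grb10 were the genes of the list that were lowered in stromal, AT2 and Ager-high cells alike. In transitional cells 8 were compared, and Igf1r was raised at 2.36 (1.21 to 5.16), from 10 and 66 UMIs, with 7 within 2-fold. Of all genes there 8.59% were raised and 4.52% lowered. With a minimum of 100 UMIs none of 3 pathway genes was raised. Igfbp1, Igfbpl1, Ins1, Ins2 and Insrr had 0 UMIs in all 4 classes.

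The genes with a pattern most like each member over the same 16 groups were found by Pearson correlation of log2 levels among 11147 genes, as a description. These groups mix stromal subsets with epithelial clusters, so genes found mainly in the stroma have high values with each other. They were Gmfb (0.898), Sdpr (0.872) and Arxes2 (0.861) for Igfbp2, and Xylt1 (0.954), Mmp8 (0.952) and Fam78b (0.951) for Igfbp5. For Igfbp3 they were Cd53 (0.993), Gm13889 (0.987) and Tbx3os1 (0.982). The stromal matrix genes Col3a1 (0.989) and Vcan (0.985) were, with Nckap5l (0.988), the nearest to Igfbp4, and Vcan (0.983) was also near Igf1, with Zcchc24 (0.989). Sparc (0.980), Hsd17b7 (0.967) and Rasl11b (0.964) were nearest to Igfbp7. Igfbp6 had the aminoacyl-tRNA synthetase gene Cars (0.910) with Gtpbp4 (0.902) and Nop14 (0.883). Among the members themselves, Igfbp3 and Igfbp5 had a correlation of 0.93, and the neighbors Igfbp2 and Igfbp5 one of -0.26.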

How the data were processed

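Single-cell RNA-seq was made from 1 control and 1 IL-1β-treated organoid culture with a droplet kit for 3′ ends. The authors deposited the UMI counts per gene and cell barcode, which are raw counts with no normalization. The submitters' processing notes name Cell Ranger and Scanpy 1.3.6, and list the builds mm9 and GRCm38, of which the study's methods name GRCm38. Use of strand in counting is not given in the sources used here. All columns of the files were used.

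The filter on cells followed the study's methods and asked for over 500 but under 7000 detected genes, and for over 2000 UMIs. Total counts were 33965848 UMIs for the control and 41220175 for the IL-1β library. Counts were clustered jointly without the IGF genes (50 principal components, 15 neighbors, Leiden resolution 1.0, and 0.5 within the stroma) using python 3.11.15, scanpy 1.11.5, leidenalg 0.10.2, numpy 2.4.6, pandas 2.3.3 and scipy 1.17.1, and figures were drawn with matplotlib 3.10.9. A doublet caller marked 3 barcodes (0.0583%), under the 0.5% below which it is taken not to have worked, so no barcode was removed and doublets remain in the data. UMIs were summed over the cells of a class, and levels are counts per 1000000 UMIs of the class (CPM). A raised or lowered gene had at least a 2-fold difference and 50 UMIs, and shares of cells were also computed after thinning to 4000 UMIs per cell, which no cell was below. The scripts were tested on simulated data.

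The members, the pathway and marker lists and the rules were chosen with earlier results of these data known. The rule for naming clusters, the stromal resolution, the treatment of doublets and the clusters without a name were settled after several clusterings and member levels had been seen. Named are all 7 members, the pathway genes past the 2-fold limit with 50 UMIs, and for each member the 3 genes of highest correlation of log2(CPM + 10) among genes with at least 200 UMIs, of which 1 is not reported here. Alternatives changed the filter on cells, doublets, clustering, scaling and the minimum count. Comparisons between samples were not tested, because each condition has 1 library.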

Additional observations from a re-analysis of the deposited data

Results flagged for a closer look

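Igfbp6 differed between the libraries in opposite directions in 2 kinds of epithelial cells. The IL-1β over control ratio was 24.7 in transitional cells and 0.256 in Ager-high cells. The difference between these ratios was not tested, and the transitional value rests on 1 control UMI in 25 cells.

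Igf1 was also seen outside the classes compared. The 4 immune cells of the control library had 29 Igf1 UMIs, a level of 500.3 CPM against 161 over all control cells. The reported clustering gave no immune class in the IL-1β library.

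Igfbp6 was at 152 CPM in the 34 IL-1β cells of epithelial cluster 9, led by Ccl20, Serpinb1a and Spib, against 24.6 over all control cells. Its 82 UMIs came from 10 cells, of which the highest held 28, and the level was 104 without that cell.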

How the results depend on the processing

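No paired analysis was possible because each condition has 1 library. For the same reason no library could be left out. Under the alternatives run, the counts of raised and lowered genes in AT2 and stromal cells stayed within 1.5 times the reported ones. In transitional cells the number raised was 1 as reported, 2 with each library clustered alone, 3 at Leiden resolution 0.5, 2 without the highest cell of each member and 0 with a minimum of 100 UMIs. In Ager-high cells the number raised was 2 as reported, 1 with the 5% highest doublet scores removed, with another random seed, with the mean of the cells' values, with the 3 marked doublets removed or without the highest cell of each member, and 0 at Leiden resolution 2.0 or with a minimum of 100 UMIs. The number lowered there was 2 as reported and 1 in these last settings. The transitional class had under 10 cells in a library, and gave no value, with no filter on cells, with the 5% highest doublet scores removed, at Leiden resolution 2.0, with another random seed and with the 3 marked doublets removed, and the Ager-high class gave none at Leiden resolution 0.5. Settings that leave out the marked doublets, stromal subsets or highest cells, and the minimum of 100 UMIs outside the stroma, were chosen after seeing the data.

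The log2 ratio of Igfbp2 ranged from -8.76 to -5.97 in stromal cells, from -8.01 to -6.65 in Ager-high cells and from -6.36 to -3.97 in AT2 cells, and that of stromal Igf1 from -1.75 to -1.57. That of stromal Igfbp5 ranged from 1.41 to 2.79, and that of Igfbp7 in AT2 cells from -1.40 to -0.93. Stromal Igfbp3 was at 0.88 as reported, but at -0.71 with no filter on cells, at -0.59 at Leiden resolution 2.0 and at -0.55 without subset 4. At Leiden resolution 2.0, 66 of the 68 cells of subset 4 were grouped with immune cells. Igfbp6 in AT2 cells lay between -0.22 and 0.76, and Igfbp7 in transitional cells between -0.64 and 1.97. Leaving surfactant, mitochondrial and ribosomal genes out of the totals moved the AT2 median of all genes from 0.13 to -0.01.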
